A study of Mus musculus with 48 samples.

Results

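The cytosolic ribosome of mouse brain was described here through 84 genes that encode its proteins, out of 18883 genes named on the array. A gene was taken if the symbol of its RefSeq transcript begins with Rpl or Rps and a digit, or is Rplp0, Rplp1, Rplp2 or Rpsa, with the Rps6k kinases and pseudogene symbols left out. The 84 genes were read by 122 of 41174 probes. They comprised 43 large-subunit proteins, 30 small-subunit proteins, the 3 stalk proteins, 7 paralogs that differ from a core subunit by gene copy, and Rps19bp1. Rps19bp1 carries the prefix only because its product binds a small-subunit protein, and it is not part of the ribosome. All 84 genes had at least 1 probe well above background on 6 of the 8 arrays of some group.

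RNA came from the frontal cortex and the hypothalamus of 24 mice that had been sleep deprived (SD) for 12 h, starting at light onset. All mice were C57BL/6. In both knock-in (KI) lines, an exon of mouse Per3 had been replaced throughout the body by its human counterpart, carrying either 5 repeats (Per3 5/5, called Boxhill in the labels) or 4 repeats (Per3 4/4, called Coach). Each line was homozygous and derived through a ubiquitous Cre, driven by the PGK promoter, that was later bred out, and the wild-type (WT) mice descended from the same conditional stock. Each genotype had 8 mice, each mouse gave 1 array per tissue, and every animal had been sleep deprived, so no rested baseline entered any comparison. Per3 probes were not placed relative to the swapped exon, so they gave no check of the genotype labels.

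The ribosome is built from a small subunit that decodes the mRNA and a large subunit that joins amino acids, with ribosomal RNA forming the catalytic core. The acidic stalk proteins on the large subunit recruit the translation factors that drive each cycle. Most ribosomal protein mRNAs begin with a C followed by an unbroken pyrimidine stretch (the TOP motif), through which mTOR signalling controls their translation as a set. Protein synthesis in brain is known to depend on sleep and wakefulness, which is the setting in which these transcripts were read.

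Promoter sequences were available for 64 of the 84 genes from RefSeq (assembly GRCm38.p6). The windows below reach 15 bases to either side of the annotated transcription start, and capitals mark the longest unbroken run of C and T. They are shown for 4 genes that were higher in a KI line than in WT and 4 that were lower, because these genes recur in the results.
Rpsa, chr9:120127751-120127780, plus strand: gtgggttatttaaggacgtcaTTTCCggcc
Rps2, chr17:24720048-24720077, plus strand: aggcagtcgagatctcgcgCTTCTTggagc
Rpl41, chr10:128549154-128549183, minus strand: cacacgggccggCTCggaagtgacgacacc
Rpl38, chr11:114668565-114668594, plus strand: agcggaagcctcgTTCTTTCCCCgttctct
Rps6, chr4:86857353-86857382, minus strand: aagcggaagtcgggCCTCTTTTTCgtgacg
Rpl22l1, chr3:28805493-28805522, plus strand: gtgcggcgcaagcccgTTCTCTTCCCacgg
Rps27l, chr9:66946071-66946100, plus strand: ccaCTCCTCCCCgccgcctctatcccggaa
Rps15a, chr7:118116133-118116162, minus strand: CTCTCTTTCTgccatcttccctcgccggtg
A run of at least 7 pyrimidines lay in 31 of the 64 windows (48.4%), against 18.5% of 27025 promoters of the same table. Among the 8 windows shown, it was present in Rpl38, Rps6, Rpl22l1, Rps27l and Rps15a and absent from Rpsa, Rps2 and Rpl41.

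Over the whole 300 bases of promoter, the letters CCGGAAG, the core bound by ETS factors, occurred on either strand in 39.1% of the 64 promoters and in 9.12% of all promoters. The letters AAGATGGC, bound by YY1, which can overlap CCGGAAG by their first letters AAG, occurred in 7.81% against 2.88%, and TATAAA in 9.38% against 14.2%. A match describes letters in a window and does not show a bound site.

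Values are log2 of the background-corrected signal over the 75th percentile of the same array, so that 0 is the 75th percentile and a difference of 1 is a doubling. A gene was called where limma gave a Benjamini-Hochberg adjusted p under 0.05 over all probes tested in that tissue, and each gene was counted by its brightest probe. The arrays were scanned on 3 days, and the days do not hold the genotypes evenly. The first day had 4 Per3 5/5 and 4 Per3 4/4 mice but no WT mouse. The second had 5 WT mice with 3 of the Per3 4/4 line, and the third had 3 WT mice with 4 of the Per3 5/5 line and 1 of the Per3 4/4 line. WT arrays were brighter, with a 75th percentile of 973 to 1463 intensity units in cortex against 324 to 1102 in Per3 4/4 and 727 to 1148 in Per3 5/5. No member probe was saturated on any array.

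**Figure D1:**
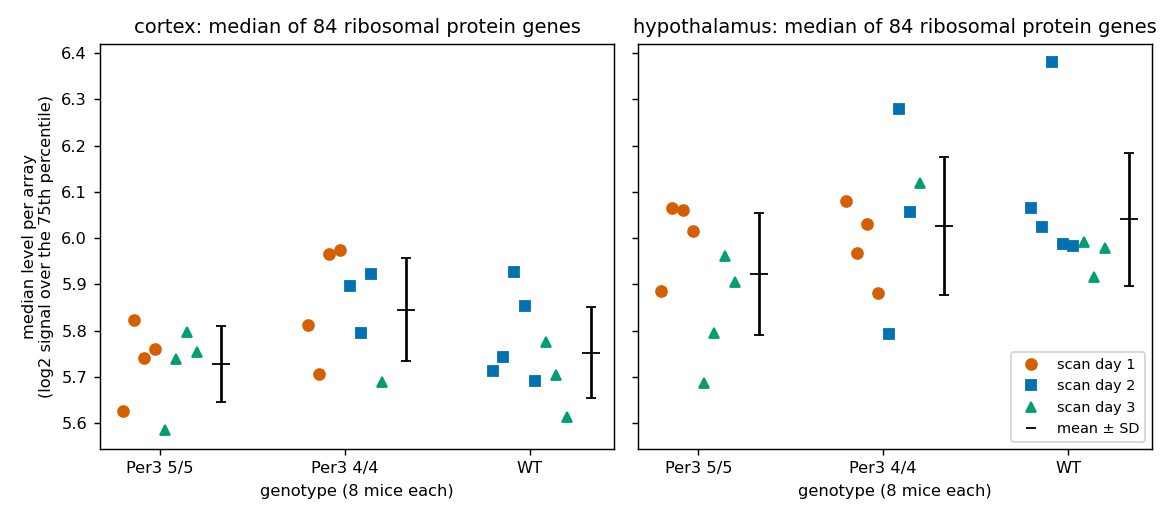
Median log2 level of the 84 ribosomal protein genes on each array, by genotype, for cortex (left) and hypothalamus (right); each point is 1 mouse, its shape and colour give the scan day, and bars give the mean ± SD of 8 mice. Cortex medians overlapped between genotypes, and 1 WT hypothalamus array stood at 6.38, above the other WT arrays at 5.92 to 6.06.

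The median level of the 84 genes per array was 5.85 ± 0.11 (SD, n = 8) in Per3 4/4 cortex, 5.73 ± 0.08 in Per3 5/5 cortex and 5.75 ± 0.10 in WT cortex. In hypothalamus the Per3 4/4 arrays stood at 6.03 ± 0.15, the Per3 5/5 arrays at 5.92 ± 0.13 and the WT arrays at 6.04 ± 0.14. The plot of array medians shows that the ranges of the genotypes overlapped in each tissue.

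In the cortex of Per3 4/4 mice, how many ribosomal protein transcripts were called higher than in WT depended on scaling and scan day, as given below. Under some of those settings their share did not exceed that of all genes, or none was called. The values in this paragraph are those with 75th percentile scaling and no scan day block. Of the 84 genes, 32 were called higher and 0 lower, where 12.8% of all genes were called higher and 10.4% lower. The median difference of the 84 genes was 0.15 on the log2 scale, against 0.02 over all genes, and 65 of the 84 differences were positive. The called genes were spread over the ribosome, with 15 of 43 large-subunit genes, 14 of 30 small-subunit genes and 2 of 3 stalk genes. Of the 7 paralogs, Rpl3l alone was called, and Rps19bp1 was not (0.10, SE 0.08, adjusted p = 0.406).

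These transcripts are abundant, so bright genes outside the rule were described beside them. Among 988 other genes with a mean level of at least 4, 13.5% were called higher and 4.05% lower, with a median difference of 0.04. Of the 70 ribosomal protein genes above the same level, 29 were called higher and 0 lower, with a median of 0.16. Across the 84 genes the difference correlated with the level (r = 0.40, a description over genes that share arrays).

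**Figure D2:**
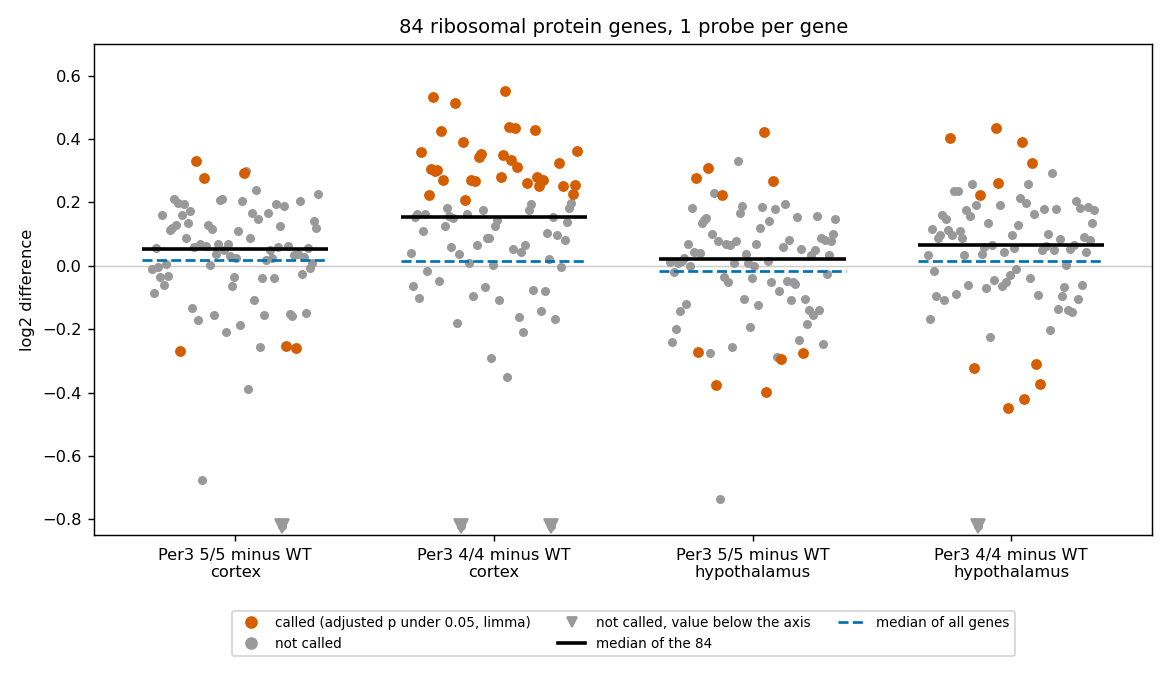
Log2 difference of each KI line from WT for the 84 ribosomal protein genes in each tissue; orange points were called by limma, triangles stand for values below the axis, the black line is the median of the 84 and the dashed line the median of all genes. Called genes lay above 0 in Per3 4/4 cortex (32 of 32) and on either side of 0 in the other 3 comparisons; with median centring the black line moves from 0.05 to -0.06 for Per3 5/5 cortex and from 0.02 to -0.05 for Per3 5/5 hypothalamus.

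The size of the Per3 4/4 cortex count depended on how arrays were scaled and on scan day. Centring each array on its median gave 11 higher and 2 lower (5.33% and 13.6% of all genes), quantile normalization gave 11 and 3 (11.1% and 10.7% of all genes), and normexp background correction gave 20 and 7 (36.3% and 11.4% of all genes). With normexp the share of the 84 genes called higher thus lay below that of all genes, and their median of 0.10 lay below the all-gene median, which that setting moved from 0.02 to 0.12. With quantile normalization the share lay near that of all genes. A fit with scan day as a block called 12 higher and 0 lower, against 4.1% and 3.3% of all genes. Leaving out the mice of scan day 1, a setting chosen after seeing the data, gave 8 higher and 0 lower (4.56% and 4.33% of all genes). Median centring together with the scan day block gave 0 (0.805% of all genes higher and 5.75% lower). Within scan day 2, with 3 Per3 4/4 and 5 WT mice, the median difference of the 84 genes was 0.15, 61 of 84 were positive, 18 passed an unadjusted p of 0.05 and 0 were called. Of all genes, 0.227% were called higher and 0.169% lower within that day. The genes called higher with the scan day block were Rpl3, Rpl38, Rpl4, Rpl41, Rpl5, Rpl8, Rplp0, Rplp1, Rps2, Rps23, Rps3 and Rpsa. The 2 Rpl5 probes disagree, at 0.36 and -0.34 without the block, and the probe at -0.34 was not called.

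**Figure D3:**
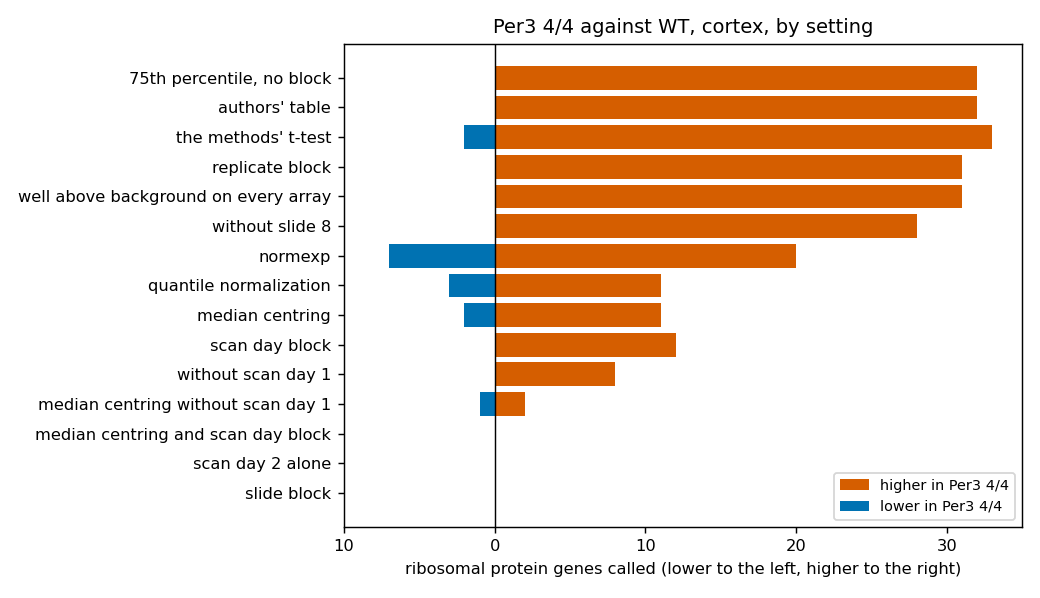
Number of the 84 ribosomal protein genes called higher (right, orange) or lower (left, blue) in Per3 4/4 than in WT cortex under each processing setting. The count fell from 32 higher with 75th percentile scaling to 12 with a scan day block and to 0 with the slide as a block or within 1 scan day. Of all genes, the slide block called 0% higher and 0% lower, and 1 scan day alone called 0.227% and 0.169%. Only slides 7 and 9 held both Per3 4/4 and WT, with 1 mouse of each, so the slide block had little power to call a gene.

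Rpsa encodes a small-subunit protein that is also known as the laminin receptor precursor. Its log2 level in cortex ran from 3.77 through a median of 4.20 to 4.63 in Per3 4/4 mice, from 3.52 through 4.00 to 4.15 in Per3 5/5 mice, and from 3.54 through 3.62 to 3.85 in WT mice. Of the 8 Per3 4/4 values, the lowest lay below the highest WT value, and the other 7 lay above it. The Per3 4/4 minus WT difference was 0.55 (SE 0.11, limma adjusted p = 0.00208), and in hypothalamus it was 0.39 (SE 0.10, adjusted p = 0.0191). In Per3 5/5 hypothalamus Rpsa was also higher than in WT, by 0.42 (SE 0.10, adjusted p = 0.00847), with values of 4.04 to 4.72 against 3.56 to 4.13. A further Rpsa probe read 0.17 in Per3 4/4 cortex and -0.19 in Per3 4/4 hypothalamus and was not called in either (adjusted p = 0.3 and 0.247). In Per3 5/5 hypothalamus that probe read -0.15 and was not called, so the 2 probes disagree in both lines.

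Rpl3 and Rpl8 lie close to the peptidyl transferase centre of the large subunit. Rpl3 in cortex ran from 5.41 through 5.47 to 5.80 in Per3 4/4 and from 4.80 through 4.98 to 5.39 in WT, with no overlap. The difference was 0.53 (SE 0.12, limma adjusted p = 0.0046), and it was 0.40 (SE 0.13, adjusted p = 0.0413) in hypothalamus. The highest WT cortex value of Rpl3 stood apart from the other WT values, which ended at 5.04. Rpl8 in cortex ran from 6.07 through 6.24 to 6.53 in Per3 4/4 and from 5.60 through 5.73 to 5.92 in WT, again with no overlap. Rpl8 was 0.51 higher (SE 0.09, adjusted p = 0.00118) in Per3 4/4 than in WT cortex and 0.33 higher (SE 0.09, adjusted p = 0.0177) in Per3 5/5 cortex. Rpl3 and Rpl8 were also higher on day 1 than on later days within the KI mice, by 0.34 (adjusted p = 0.0305) and 0.26 (adjusted p = 0.0165) in cortex. When scan day entered the fit as a block, both genes were still called higher in Per3 4/4 cortex.

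Rpl41, a very short basic peptide of the large subunit, ran from 7.13 through 7.47 to 7.70 in Per3 4/4 cortex and from 6.85 through 6.99 to 7.19 in WT cortex. The ranges overlapped at their edges, and the difference was 0.44 (SE 0.09, limma adjusted p = 0.00235). Rpl41 was also higher in hypothalamus, by 0.32 (adjusted p = 0.0206) in Per3 4/4 and 0.27 (adjusted p = 0.037) in Per3 5/5. Rpl38, known from its role in patterning the mouse axial skeleton, was higher in Per3 4/4 by 0.35 (adjusted p = 0.00663) in cortex and 0.26 (adjusted p = 0.0484) in hypothalamus.

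The stalk proteins recruit elongation factors. Rplp1 in cortex ran from 7.79 through 7.98 to 8.52 in Per3 4/4 and from 7.37 through 7.63 to 7.81 in WT, and the ranges met at their edges. It was higher in Per3 4/4 by 0.44 (SE 0.12, limma adjusted p = 0.0125), and Rplp0, the stalk base, by 0.30 (SE 0.08, adjusted p = 0.0128). The difference for Rplp2 was 0.15 (SE 0.08, adjusted p = 0.145) and was not called. In hypothalamus none of the 3 stalk genes was called in either KI line, with Per3 4/4 differences of 0.10 for Rplp0, 0.20 for Rplp1 and 0.12 for Rplp2 (adjusted p = 0.418, 0.332 and 0.291).

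Rps2, a small-subunit protein near the site where mRNA enters, was the only one of the 84 genes called in the same direction in both KI lines in both tissues. In cortex it ran from 7.29 through 7.61 to 7.77 in Per3 4/4, from 7.30 through 7.42 to 7.61 in Per3 5/5 and from 6.94 through 7.18 to 7.34 in WT. In hypothalamus it ran from 6.83 through 7.22 to 7.33 in Per3 4/4, from 7.0 through 7.19 to 7.31 in Per3 5/5 and from 6.81 through 6.95 to 7.14 in WT. The KI values lay mostly above the WT values, with some overlap in each case. The differences from WT in cortex were 0.39 for Per3 4/4 (SE 0.08, limma adjusted p = 0.00323) and 0.28 for the Per3 5/5 line (SE 0.08, adjusted p = 0.0316). The hypothalamus differences, in the same order, were 0.22 (SE 0.07, adjusted p = 0.0448) and 0.22 (SE 0.07, adjusted p = 0.039). Both lines were set against the same WT mice, so these comparisons are not independent. A further Rps2 probe gave 0.42 (adjusted p = 0.00261) in Per3 4/4 cortex and 0.27 (adjusted p = 0.0374) in Per3 4/4 hypothalamus. In Per3 5/5 that probe gave 0.21 in cortex and 0.18 in hypothalamus and was called in neither. With median centring, 0 of the 84 genes were called higher in Per3 5/5 cortex, so Rps2 was not called higher there. With the scan day block Rps2 stayed called in Per3 4/4 cortex alone.

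Other small-subunit genes called higher in Per3 4/4 cortex included Rps18, often used as a reference gene (0.36, limma adjusted p = 0.0167). Rps27a, a fusion of ubiquitin to a small-subunit protein, gave -1.07 (SE 0.76, adjusted p = 0.324) in Per3 4/4 cortex, where 1 array read -1.84 and the other 7 read 5.63 to 6.19. Without that spot the Rps27a difference was -0.09 (adjusted p = 0.504). Rpl35a had a similar dark spot in 1 Per3 5/5 cortex array, at -1.03 against 5.42 to 5.78 in the other 7. Without it Rpl35a was lower in Per3 5/5 than in WT cortex by -0.24 (SE 0.08, adjusted p = 0.049). Both values without the spots were computed after the spots had been seen.

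In the cortex of Per3 5/5 mice, of the 84 genes 3 were called higher and 3 lower than in WT, where 7.11% and 4.49% of all genes were called, and 20 passed an unadjusted p of 0.05. The median of the 84 was 0.05 with 75th percentile scaling and turned to -0.06 with median centring, a setting that moved the median of all genes from 0.02 to -0.09. The split of calls moved with it, to 0 higher and 11 lower with median centring (1.3% and 11.2% of all genes), 2 and 5 with quantile normalization (4.89% and 6.02%) and 3 and 7 with normexp (22.3% and 6.96%). In a fit with scan day as a block, limma called 0 of the 84 genes (0.338% of all genes higher and 0.344% lower), with 9 at an unadjusted p under 0.05. Leaving out scan day 1 also gave 0 calls (1.92% and 1.28% of all genes), with 8 at an unadjusted p under 0.05. Within scan day 3, with 4 Per3 5/5 and 3 WT mice, the median was 0.08, 58 of 84 differences were positive, and 0 were called, with 1 at an unadjusted p under 0.05. Of all genes, 0% were called higher and 0.00649% lower within that day.

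The genes called higher included Rpl8 and Rps2, given above. The genes called lower were Rpl22l1, Rpl39 and Rps6. Rps6, the small-subunit protein phosphorylated by the S6 kinases downstream of mTOR, ran from 3.86 through 3.94 to 4.10 in Per3 5/5 cortex and from 4.02 through 4.14 to 4.54 in WT cortex. The difference was -0.25 (SE 0.07, limma adjusted p = 0.0225), and 1 or more mice of each group lay in the shared range. In hypothalamus Rps6 ran from 4.39 through 4.53 to 4.6 in Per3 5/5 and from 4.59 through 4.75 to 5.16 in WT, a difference of -0.28 (SE 0.08, adjusted p = 0.0215). In Per3 4/4 the Rps6 differences were -0.08 in cortex and -0.09 in hypothalamus and were not called (adjusted p = 0.434 and 0.44), while the direct Per3 5/5 minus Per3 4/4 differences were -0.17 and -0.18 (adjusted p = 0.285 and 0.291).

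Rpl22l1 is a paralog of the RNA-binding protein Rpl22. It ran from 4.96 through 5.09 to 5.38 in Per3 5/5 cortex and from 5.23 through 5.39 to 5.59 in WT, and from 5.53 through 5.76 to 5.97 against 5.90 through 6.03 to 6.25 in hypothalamus. The groups overlapped in part, and the difference was -0.27 in both tissues (SE 0.08 and 0.09, limma adjusted p = 0.0274 and 0.0308). Rpl22 itself differed from WT by -0.04 and -0.11 in Per3 5/5 cortex and hypothalamus (adjusted p = 0.774 and 0.38). Rpl39, a short protein lining the exit tunnel, was lower in Per3 5/5 cortex by -0.26 (SE 0.08, adjusted p = 0.0373), with 1 of the 8 Per3 5/5 arrays lacking a usable spot. Its level in Per3 5/5 ran from 5.17 to 5.51 and in WT from 5.46 to 5.78.

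In hypothalamus, the shares of the 84 genes called in either direction lay below those of all genes in both KI lines. In Per3 5/5 mice 5 were called higher and 5 lower than in WT (9.65% and 10.9% of all genes), and in Per3 4/4 mice 6 and 5 (8.17% and 8.5% of all genes). The median of the 84 was 0.02 in Per3 5/5, turning to -0.05 with median centring and -0.03 with quantile normalization. In Per3 4/4 it was 0.07, 0.01 with median centring and -0.04 with quantile normalization. The splits of higher and lower calls became 1 and 8, 2 and 7, and 1 and 2 in Per3 5/5 with median centring, quantile normalization and normexp, and 1 and 5, 3 and 7, and 2 and 4 in Per3 4/4. With median centring, 5.27% of all genes were called higher and 14.8% lower in Per3 5/5, and 4.09% and 11.1% in Per3 4/4. With quantile normalization these shares were 8.84% and 11.3% in Per3 5/5 and 7.56% and 8.22% in Per3 4/4, and with normexp 3.84% and 4.2%, and 4.36% and 3.68%. A fit that blocked on scan day called none of the 84 in Per3 5/5 (0.873% of all genes higher, 1.56% lower) or in Per3 4/4 (0.483% and 0.358%), with 4 and 12 at an unadjusted p under 0.05. Leaving out scan day 1 gave 1 higher and 3 lower in Per3 5/5 (7.33% and 11.8% of all genes) and 0 in Per3 4/4 (0.0126% and 0%), with 11 at an unadjusted p under 0.05. Within scan day 3 the Per3 5/5 median was -0.02 and within scan day 2 the Per3 4/4 median was 0.02, with 0 called in each. The shares of all genes called higher and lower there were 0% and 0.00628% in Per3 5/5 and 0.0126% and 0.00628% in Per3 4/4.

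The WT hypothalamus array labelled replicate 3 stood apart for many of these genes, with a median of 6.38 over the 84 where the other WT arrays reached 6.06. Without it, a setting chosen after seeing the data, 5 genes were called higher and 3 lower in Per3 5/5, and 9 and 3 in Per3 4/4. The shares of all genes were 8.84% and 9.34% in Per3 5/5 and 7.02% and 6.84% in Per3 4/4. Rpl30 then missed the threshold in both lines (limma adjusted p = 0.0541 in Per3 5/5 and 0.0503 in Per3 4/4), Rps15a and Rps29 missed it in Per3 5/5, and Rpl14 missed it in Per3 4/4. Rpl8 was then called higher in both, by 0.29 in Per3 5/5 and 0.32 in Per3 4/4.

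The genes called higher in Per3 5/5 hypothalamus were Rpsa, Rpl41 and Rps2, given above, with Rps15 (0.31, SE 0.09, limma adjusted p = 0.0189) and Rps29 (0.28, SE 0.09, adjusted p = 0.0427), both of the small subunit. Rps15 ran from 4.68 through 5.01 to 5.30 in Per3 5/5 and from 4.43 through 4.74 to 4.88 in WT. In Per3 4/4 hypothalamus they included Rpl3, Rpsa, Rpl41, Rpl38 and Rps2. Rps29 and Rps15 were not called there, at 0.24 and 0.18 (adjusted p = 0.0861 and 0.163).

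Among genes called lower in hypothalamus, Rps27l is a paralog of Rps27 known as a target of the tumour suppressor p53. It ran from 2.79 through 2.89 to 3.16 in Per3 5/5, from 2.84 through 2.97 to 3.17 in Per3 4/4 and from 3.18 through 3.23 to 3.78 in WT, so that every KI value lay below every WT value. The differences were -0.38 (SE 0.08, limma adjusted p = 0.00486) and -0.32 (SE 0.08, adjusted p = 0.0167). The parent gene Rps27 differed from WT by 0.08 and -0.05 (adjusted p = 0.49 and 0.703). Rps27l in cortex was at -0.17 in Per3 5/5 and -0.18 in Per3 4/4 and was not called (adjusted p = 0.0932 and 0.0595).

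Rps4l is a paralog of the X-linked small-subunit gene Rps4x. In hypothalamus it ran from 2.54 through 2.79 to 3.0 in Per3 4/4, from 2.58 through 3.04 to 3.28 in Per3 5/5 and from 2.93 through 3.15 to 3.99 in WT, the last being WT replicate 3. It was lower in Per3 4/4 by -0.45 (SE 0.12, limma adjusted p = 0.0198) and differed by -0.19 in Per3 5/5 (adjusted p = 0.261). Rps15a was lower by -0.29 (adjusted p = 0.0486) in Per3 5/5 and -0.37 (adjusted p = 0.0224) in Per3 4/4, but a further Rps15a probe gave 0.01 in Per3 4/4 (adjusted p = 0.947). Rpl14 was lower in Per3 4/4 by -0.31 (adjusted p = 0.0487), and in Per3 5/5 it differed by -0.29 (adjusted p = 0.0567).

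Rpl30 was lower than in WT hypothalamus by -0.40 (SE 0.14, limma adjusted p = 0.0432) in Per3 5/5 and -0.42 (SE 0.14, adjusted p = 0.0399) in Per3 4/4. Its values split by scan day within the KI mice, with day 1 lower than later days by -0.53 (adjusted p = 0.000861) in hypothalamus and -0.49 (adjusted p = 0.00479) in cortex. In hypothalamus the day 1 arrays ran from 4.27 to 4.57, the later KI arrays from 4.72 to 5.29 and the WT arrays from 4.95 to 5.30, so the day 1 arrays lay apart.

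Further, dimmer probes of 4 other genes, Rps21, Rpl7a, Rps3a1 and Rpl29, also split by scan day in both tissues. Within the KI mice, day 1 was lower than later days by -1.35 for a probe of Rps21 (limma adjusted p = 2.13e-06), by -1.19 for one of Rpl7a (adjusted p = 2.06e-07) and by -1.04 for one of Rps3a1 (adjusted p = 1.05e-06) in cortex. The Rps21 probe ran from 2.83 to 3.47 on day 1 arrays, from 4.01 to 4.93 on later KI arrays and from 4.18 to 4.81 on WT arrays. The Rpl7a probe ran from 2.55 to 3.04, from 3.70 to 4.32 and from 3.68 to 4.20, and the Rps3a1 probe from 2.56 to 3.02, from 3.57 to 4.10 and from 3.86 to 4.24. A dimmer Rpl29 probe was lower on day 1 by -0.60 in cortex and -0.71 in hypothalamus (adjusted p = 9.09e-05 and 2.76e-05), and another Rpl29 probe by -0.34 in hypothalamus (adjusted p = 0.00269). For these probes, in the tissues given, the day 1 arrays, from both KI lines, lay below all later KI arrays, whose ranges overlapped the WT ranges. In cortex, other Rpl29 probes overlapped between the days, at 3.05 to 3.40 on day 1 against 3.27 to 3.71 later, and at 3.34 to 3.73 against 3.55 to 3.96. The brighter, counted probes of the same genes differed between day 1 and later days by 0.20 for Rps21, 0.15 for Rpl7a and 0.09 for Rps3a1 (adjusted p = 0.13, 0.194 and 0.295). Against WT, the dimmer Rps3a1 probe was called lower in both lines and both tissues, with differences of -0.72 in cortex and -0.80 in hypothalamus in Per3 4/4 (adjusted p = 0.0283 and 0.0308) and of -0.76 and -0.81 in Per3 5/5 (adjusted p = 0.0346 and 0.0226). The counted Rps3a1 probe differed by 0.16 and -0.02 in Per3 4/4 (adjusted p = 0.0677 and 0.924) and by -0.00 and -0.20 in Per3 5/5 (adjusted p = 0.968 and 0.155). The dimmer Rps21 probe was called in Per3 4/4 hypothalamus at -0.93 (adjusted p = 0.0416), beside -0.80 in Per3 5/5 hypothalamus (adjusted p = 0.0643).

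**Figure D4:**
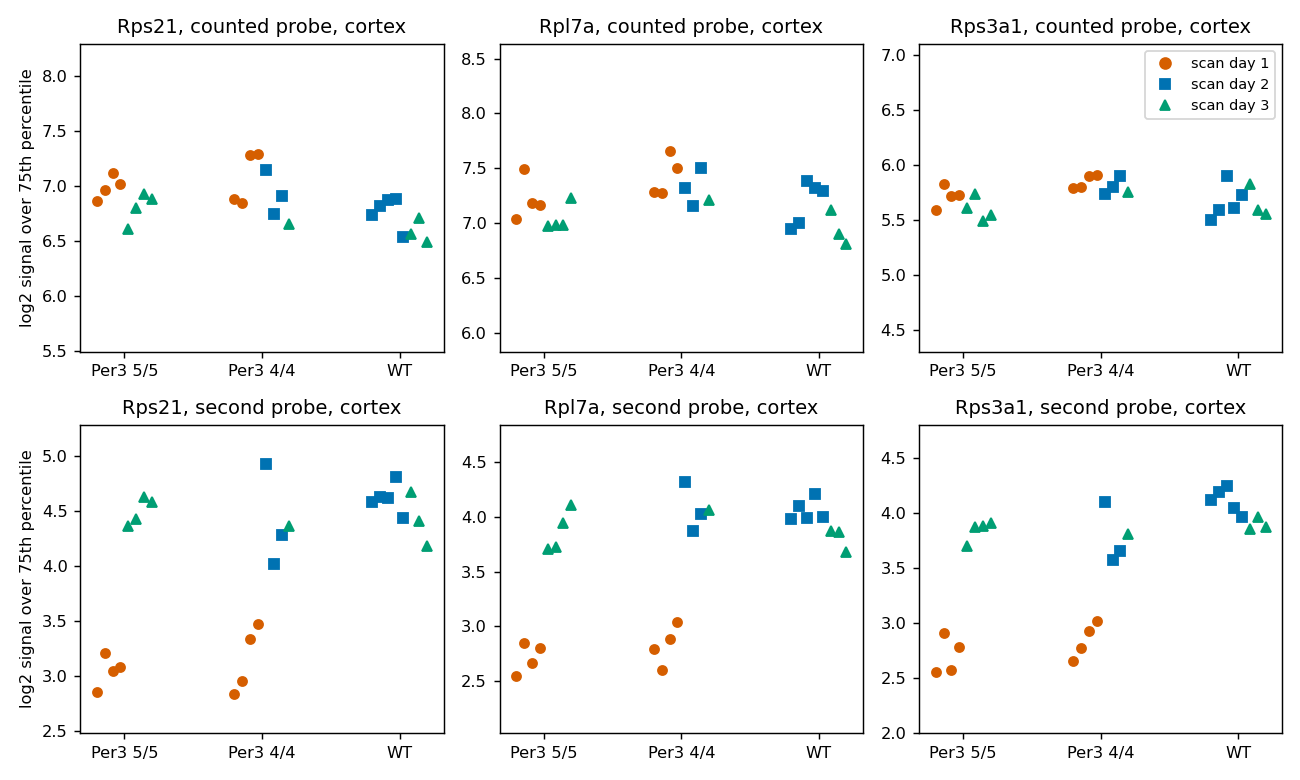
Log2 level of the counted probe (top) and of a dimmer probe (bottom) of Rps21, Rpl7a and Rps3a1 in cortex, for each mouse by genotype; the vertical range is the same width in each panel and scan days differ in shape and colour. The dimmer probes read about 1 unit or more lower on day 1 arrays of both KI lines, with -1.35, -1.19 and -1.04 for the day difference, and the counted probes showed no such split.

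Counted with 1 probe per gene, 7 of the 84 genes were higher and 1 lower on day 1 among KI mice in cortex, where 12.8% of all genes were higher and 7.49% lower. In hypothalamus 7 were higher and 1 lower, against 16.7% and 11%. Median centring gave 16 and 1 in cortex (18.4% and 4.65%) and 6 and 1 in hypothalamus (17.7% and 8.93%). Over all probes, 22.5% differed between day 1 and later days among KI mice in cortex and 29.4% in hypothalamus. Of the 121 tested ribosomal protein probes, 13 were higher and 6 lower on day 1 in cortex, and 12 and 7 in hypothalamus. Day 1 held no WT mice, so a day effect and the KI genotype cannot be told apart for the mice scanned then.

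Between the 2 KI lines, no ribosomal protein gene was called by limma in either tissue, and 0% of all genes were called (0.00649% lower in cortex with normexp). In cortex 74 of the 84 differences were below 0 in Per3 5/5 relative to Per3 4/4, with a median of -0.11 against -0.00 for all genes, and 21 passed an unadjusted p of 0.05. The methods' t-test also called 0 after Benjamini-Hochberg adjustment, with 19 at an unadjusted p under 0.05. The median was -0.05 with quantile normalization, -0.16 with median centring, and -0.11 within scan day 1, where 4 mice of each line met and 79 of the 84 differences were below 0. The lowest adjusted p was that of Rps4x, at 0.282, with a difference of -0.23 (SE 0.06). Leaving out scan day 1 called 1 gene lower in cortex (0.941% of all genes higher and 0.584% lower) and 2 lower in hypothalamus (3.94% and 6.64%). In hypothalamus the median was -0.03 against -0.02 for all genes, 62 of the 84 were below 0 and 4 passed an unadjusted p of 0.05. The hypothalamus median turned to 0.04 within scan day 1 and with the slide as a block.

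Whether a genotype difference was unlike in the 2 tissues was tested by an interaction term. In limma it called 0 of the 84 genes for each pair of genotypes (0.0124% of all genes were called lower for Per3 5/5 against WT and 0% otherwise), and 0 of the 84 passed an unadjusted p of 0.05. With the mouse as a block, which pairs the tissues, limma again called 0, and 1, 3 and 6 of the 84 passed an unadjusted p of 0.05 for Per3 5/5 against Per3 4/4, Per3 5/5 against WT and Per3 4/4 against WT. For Per3 4/4 against WT the median interaction was -0.10, hypothalamus minus cortex, with 73 of the 84 below 0. The 32 calls in cortex and 6 in hypothalamus are therefore not shown to differ gene by gene.

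Between tissues, 47 of the 84 genes were called higher and 8 lower in hypothalamus than in cortex, averaged over the 3 genotypes, where 40.7% and 32% of all genes were called. The median was 0.14 against 0.05 for all genes, and 62 of the 84 were positive. Other scaling gave 30 and 14 with median centring (34.5% and 37% of all genes), 61 and 4 with quantile normalization (42.5% and 30.8%) and 45 and 7 with normexp (33.5% and 29.8%). By role, 24 of 43 large-subunit and 18 of 30 small-subunit genes were higher, 3 and 1 were lower, and 5 of 7 paralogs were higher and 1 lower. Within a genotype, 31 were higher and 5 lower in Per3 5/5 (30.5% and 25% of all genes), 21 and 8 in Per3 4/4 (32.4% and 24.7%) and 35 and 4 in WT (33.4% and 24.4%). With median centring these became 22 and 6 in Per3 5/5 (26.4% and 27.1%), 8 and 13 in Per3 4/4 (26.4% and 28.6%) and 18 and 6 in WT (26.9% and 28.3%), so the split turned in Per3 4/4. Quantile normalization moved them the other way, to 53 and 2 in Per3 5/5 (33.3% and 23.4%), 49 and 3 in Per3 4/4 (34.4% and 23.7%) and 57 and 2 in WT (34.3% and 23.9%). Normexp gave 28 and 2 (22.9% and 20.9%), 19 and 3 (22.7% and 21.3%) and 30 and 1 (27.8% and 20.2%). Without these other scalings, 20 of the 84 were called higher and 4 lower in all 3 genotypes, which share no arrays. The share of all genes called in all 3 genotypes is not given here, so these counts stand without a baseline. With median centring at most 8 could be higher in all 3, the number called in Per3 4/4, and with normexp at most 19.

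**Figure D5:**
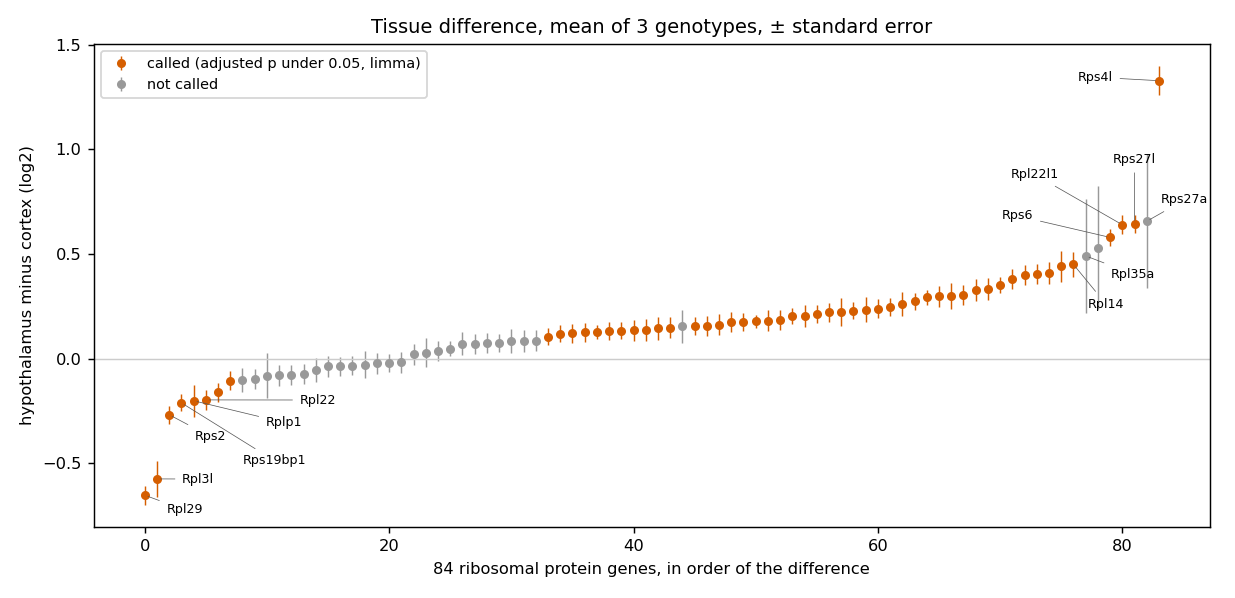
Hypothalamus minus cortex log2 difference (mean of the 3 genotypes, bar = standard error) for the 84 ribosomal protein genes in order of size; orange genes were called by limma. Rps4l stood highest at 1.33, and Rpl29 and Rpl3l were lowest at -0.65 and -0.58.

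Several paralogs differed between tissues. Rps4l read 1.04 to 2.11 over all cortex arrays and 2.54 to 3.99 over all hypothalamus arrays, with no overlap, and was higher in hypothalamus by 1.33 (SE 0.07, limma adjusted p = 1.18e-21). Rps27l was higher by 0.64 (adjusted p = 2.58e-18) and Rpl22l1 by 0.64 (adjusted p = 5.45e-17). Their parent genes differed by 0.21 for Rps4x (adjusted p = 5.77e-05), 0.30 for Rps27 (adjusted p = 7.29e-07) and -0.20 for Rpl22 (adjusted p = 0.00034), so Rpl22 and Rpl22l1 differed in opposite directions. Rpl7l1, a nucleolar relative of Rpl7, was higher by 0.33 (adjusted p = 2.93e-07), and Rpl7 by 0.18 (adjusted p = 0.000794). Rpl36al, an expressed copy of the X-linked Rpl36a, was higher by 0.29 (adjusted p = 3.62e-09), and Rpl36a by 0.20 (adjusted p = 3.79e-06).

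Rpl3l, the striated-muscle counterpart of Rpl3, was the paralog that ran the other way. It lay far below the 75th percentile, at -5.43 to -4.34 over all cortex arrays and -6.50 to -5.01 over all hypothalamus arrays. These levels overlapped those of Rpl39l, which is close to background and read -5.50 to -4.95 over the WT cortex arrays. The Rpl3l differences below thus rest on low signal. Rpl3l was lower in hypothalamus by -0.58 (SE 0.09, limma adjusted p = 1.47e-07), while Rpl3 was higher by 0.44 (SE 0.07, adjusted p = 8.23e-07). In Per3 4/4 cortex, Rpl3l was higher than in WT by 0.43 (SE 0.12, adjusted p = 0.013), with -5.11 to -4.34 against -5.34 to -5.15. Day 1 was higher than later days for Rpl3l by 0.42 within the KI cortex arrays (adjusted p = 0.00602). Rpl39l, the testis counterpart of Rpl39, was well above background on 4 of 8 Per3 4/4, 6 of 8 Per3 5/5 and 8 of 8 WT cortex arrays and was called in no comparison. Rpl10l, the autosomal counterpart of Rpl10, was not analysed here, and Rpl10 was higher in hypothalamus by 0.41 (adjusted p = 1.59e-10).

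Among the core subunits, Rps6 had the largest called rise from cortex to hypothalamus, by 0.58 (SE 0.04, limma adjusted p = 1.11e-16), followed by Rpl14 at 0.45 (SE 0.06, adjusted p = 2.91e-09). Rpl29, a large-subunit protein that binds heparin at the cell surface, was lower in hypothalamus by -0.65 (SE 0.05, adjusted p = 3.21e-17), at 3.65 to 4.50 over all hypothalamus arrays against 4.6 to 5.21 in cortex, with no overlap. Rps2 was lower by -0.27 (SE 0.04, adjusted p = 5.42e-07), Rps19bp1 by -0.21 (adjusted p = 1.03e-05), Rplp1 by -0.20 (adjusted p = 0.0169) and Rplp0 by -0.11 (adjusted p = 0.0399). Rplp2 did not pass, at 0.08 (adjusted p = 0.111). Rpl13a, often used as a reference gene, was higher in hypothalamus by 0.12 (adjusted p = 0.0179), and its KI differences from WT lay between 0.09 and 0.15 with no call.

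The dissected tissues carried their own markers. All 9 hypothalamus markers tested were higher in hypothalamus and all 8 cortex markers lower, and the hypothalamus sum, as signal over the 75th percentile, was 0.834 to 1.95 in cortex against 231 to 452 in hypothalamus. Oligodendrocyte markers were higher in hypothalamus (9 of 9), and their sum was 78.0 to 203 in cortex and 193 to 351 in hypothalamus. Microglia markers were lower (7 of 7). In bulk tissue, fewer cells of a type and less RNA per cell cannot be told apart, and the part of cell makeup in the tissue differences was not tested.

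Markers also moved with genotype in hypothalamus. Of 9 oligodendrocyte markers, 7 were called higher than WT in Per3 4/4 and 4 in Per3 5/5, with sums of 253 to 351 and 236 to 296 against 193 to 282 in WT. Of 5 neutrophil markers tested there, 5 were called lower in Per3 5/5 and 1 in Per3 4/4, and the 6 together summed to 0.0356 to 0.905 and 0.219 to 2.02 against 0.401 to 3.21. Of the other lists in Per3 5/5 hypothalamus, 2 of 7 astrocyte, 2 of 8 cortex and 1 of 5 endothelium markers were higher. There 3 of 7 choroid plexus, 2 of 5 meninges, 1 of 7 astrocyte, 1 of 7 microglia, 1 of 9 hypothalamus and 1 of 7 pituitary markers were lower, and 0 of 3 blood markers were called. For Per3 4/4 hypothalamus, 1 astrocyte and 1 hypothalamus marker were higher, 1 choroid plexus and 1 hypothalamus marker were lower, and no blood, cortex, endothelium, meninges, microglia or pituitary marker was called. WT replicate 3, which stood apart for the ribosomal genes, held the highest WT endothelium sum, at 17.0 against a next highest of 11.6. It also held the highest WT sums of astrocyte markers (166 against 157) and cortex markers (25.2 against 23.3) and the lowest of choroid plexus (3.71) and pituitary markers (18.3), while another WT array held the highest pituitary sum at 911. In cortex 0 of 9 oligodendrocyte, 0 of 7 astrocyte, 0 of 7 microglia and 0 of 6 neutrophil markers were called between Per3 4/4 and WT. Of the other lists there, 2 of 8 cortex markers and 1 of 5 choroid plexus markers were higher, and 1 cortex marker and 1 of 5 endothelium markers were lower. None of 3 blood, 5 meninges, 6 pituitary and 7 hypothalamus markers was called. In Per3 5/5 cortex 2 of 7 hypothalamus markers, 1 of 8 cortex and 1 of 5 choroid plexus markers were higher, 1 of 7 microglia markers was lower, and none of the other lists had a call. The part of these markers in the ribosomal differences was not tested.

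Other translation genes were described through lists of their own, beside the all-gene shares of 12.8% higher and 10.4% lower in Per3 4/4 cortex and 7.11% and 4.49% in Per3 5/5 cortex. In Per3 4/4 cortex, 6 of 19 other TOP mRNAs were higher and 0 lower than in WT, with a median of 0.12. They included Eef2, the factor that moves the ribosome along mRNA, at 0.81 (SE 0.13, limma adjusted p = 0.00115), and Eef1g, a subunit of the complex that recharges elongation factor 1, at 0.32 (adjusted p = 0.0228). Rack1, a scaffold on the small subunit, was higher by 0.23 (adjusted p = 0.0151). Of 78 mitochondrial ribosomal protein genes, 7 were higher and 10 lower, with a median of -0.06. Of 49 initiation factor genes 7 were higher, with Eif4g1 at 0.62 (adjusted p = 0.0055), and 5 lower, with Eif4e at -0.35 (adjusted p = 0.018). Of 30 ribosome assembly genes 5 were higher, with nucleolin, Ncl, at 0.48 (adjusted p = 0.00651), and 2 lower, with Nop58 at -0.43 (adjusted p = 0.00289). These list counts, here and below, are without other scaling or a scan day block. Within KI cortex arrays, scan day 1 had 11 of 30 assembly genes higher than later days and 2 lower. The counts were 13 and 2 of 49 initiation factors, 15 and 1 of 78 mitochondrial genes and 3 and 3 of 19 other TOP mRNAs. The all-gene shares were 12.8% and 7.49%. Scan day 1 held no WT mouse, so a day effect and genotype cannot be told apart for those mice.

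The S6 kinase genes, whose products phosphorylate Rps6, differed in direction in Per3 4/4 cortex, with Rps6kb2 higher by 0.46 (SE 0.11, limma adjusted p = 0.00707) and Rps6kb1 lower by -0.35 (SE 0.08, adjusted p = 0.00593). Over the whole growth signalling list of 20 genes, 3 were higher and 3 lower. In Per3 5/5 cortex, the counts of genes higher and lower than WT were 2 and 4 of 19 other TOP mRNAs, 0 and 14 of 78 mitochondrial ribosomal genes, 0 and 6 of 49 initiation factors, 2 and 2 of 30 assembly genes and 2 and 0 of 20 growth signalling genes. In hypothalamus, the other TOP mRNAs gave 2 and 4 in Per3 5/5 and 4 and 2 in Per3 4/4, and the mitochondrial genes gave 1 and 18 and 1 and 4, beside all-gene shares of 9.65% and 10.9% in Per3 5/5 and 8.17% and 8.5% in Per3 4/4.

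The promoter features did not separate the called genes from the rest by count. Of the genes with a promoter sequence, 22 were called higher in Per3 4/4 cortex and 42 were not. A run of at least 7 pyrimidines lay in the window around the annotated start in 10 of the 22 and 21 of the 42. The run could lie anywhere in that window, so this is not a count of mRNAs that begin with a TOP motif. The letters CCGGAAG lay in the promoters of 8 and 17. Rpl38 and Rps6, whose windows are printed above with runs of the same length, were higher and not called in that comparison, at 0.35 and -0.08.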

How the data were processed

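Total RNA from frontal cortex and hypothalamus of 24 mice was labelled with Cy3 and hybridised to 48 one-colour Agilent arrays on 12 slides. Spot intensities of the scanned arrays were read with Feature Extraction 10.7.1.1, the version given in the header of the scanner output. The deposited scanner files hold intensity values that the authors' software had already background-corrected. The authors' series table holds log2 values scaled by the authors to the 75th percentile, and it was used as an alternative. Of the values present, 99.97% lay within 0.05 of those computed here, when both were compared on the same baseline. In cortex, 29.1% of the authors' values were blank, against 0% in hypothalamus. All per-sample columns of the series were mapped to a sample (0 not used).

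Here, outlier spots were left out, spots of a probe averaged, and each array's log2 75th percentile subtracted. Probes well above background on 6 of 8 arrays of a group were tested with limma 3.58.1 in R 4.3.3 (29724 in cortex, 30746 in hypothalamus, 31237 for tissue contrasts). Benjamini-Hochberg adjustment ran over all probes tested, and a gene was called at an adjusted p under 0.05. Tests were two-sided. Of 41174 probes, 28486 carried a RefSeq accession and 27668 matched a gene symbol. The 84 genes were counted by their brightest tested probe, and 32 had at least 2 probes. The number of arrays limits the precision of each value.

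Alternatives were median centring, quantile normalization, normexp with an offset of 50, a stricter filter, the authors' table, scan day, slide and replicate as blocks, 1 scan day alone, the methods' t-test, and, added after seeing the data, leaving out scan day 1, a slide, a WT array or 2 dark spots. The 2 tissues of a mouse deviated together (correlation of deviations 0.07 to 0.61, over 0.1 in 23 of 24 mice), so the mouse was a true pair between tissues, taken from the mouse numbers in the labels. Genes were named by rule: the 5 called genes with the largest difference in each direction of every genotype comparison and of the tissue contrast, those called alike in both KI lines and both tissues, and stalk, paralog, parent and reference genes by role. Genes of the other translation lists, and Rpl4, Rpl5, Rpl35a, Rpl7a, Rps3, Rps3a1, Rps21 and Rps23, were named after their values were seen. Some genes that the rule names are not reported here, though they enter every count. The members and lists were chosen with earlier results of these data known. Marker lists covered cortex, hypothalamus, oligodendrocyte, astrocyte, microglia, blood, neutrophil, choroid plexus, pituitary, endothelium and meninges genes. The fit was tested on simulated data with known changes. In simulated Per3 4/4 and WT cortex arrays, limma recovered 35% of log2 changes of 0.5 and 78% of changes of 1. Each probe was simulated with its spread over all cortex arrays. A smaller difference that was not called is thus not shown to be absent.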

Additional observations from a re-analysis of the deposited data

Results flagged for a closer look

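Single arrays stood apart from the other 7 of their group in 24 of 224 sets of 8 values examined, by a gap test on the highest or lowest array. Chance alone gives such a gap in about 1 in 20 groups. No explanation was tested for any of them.

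The WT hypothalamus array labelled replicate 3 accounted for many of them. The median log2 level of the 84 genes was 6.38 there. It was low for Rpl10 (5.39) and Rpl29 (3.65) and high for Rpl36a (5.95), Rpl36al (4.37), Rpl8 (6.66), Rps15a (5.37), Rps27l (3.78), Rps4l (3.99) and Rps4x (6.71). The cortex array of WT replicate 3 was high for Rpl3 (5.39) and Rps15a (4.65).

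Dark spots gave -1.03 for Rpl35a in Per3 5/5 cortex replicate 2 and -1.84 for Rps27a in Per3 4/4 cortex replicate 3. The Per3 5/5 hypothalamus array of replicate 5 was low for Rps15a (4.14), Rps19bp1 (2.65) and Rps4l (2.58). In Per3 4/4 hypothalamus, Rps2 was low in replicate 5 (6.83), Rpsa high in replicate 3 (4.68), Rpl39 high in replicate 6 (5.75) and Rpl39l low in replicate 8 (-8.47). In WT hypothalamus, Rpl39l was low in replicate 1 (-5.75) and Rpl3l in replicate 7 (-6.50).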

How the results depend on the processing

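No called value of a named gene changed sign under median centring, the scan day block or without WT hypothalamus replicate 3. Median centring ended 19 such calls and added 11, the scan day block ended 33, and leaving out that array ended 5 and added 2. Against the WT values, the counts of called genes (of 84) moved by over 1.5 times as follows; the cause was not tested. For Per3 4/4 cortex (32), they were 13 with median centring, 14 with quantile normalization (median difference 0.056), 12 with the scan day block, 8 without scan day 1, 3 with median centring without scan day 1, and 0 with the slide block, 1 scan day, or median centring and the scan day block. For Per3 5/5 cortex (6), they were 11 with median centring (median -0.0598), 10 with normexp, 1 with median centring and the scan day block, and 0 with the slide block, the scan day block, 1 scan day or without scan day 1. For Per3 5/5 hypothalamus (10), they were 3 with normexp, 4 without scan day 1, 6 with median centring without scan day 1, and 0 with the slide block, the scan day block, median centring and the scan day block, or 1 scan day. For Per3 4/4 hypothalamus (11), they were 6 with median centring and 6 with normexp, and 0 with the slide block, the scan day block, 1 scan day, median centring and the scan day block, and without scan day 1 under either scaling. Per3 5/5 against Per3 4/4 rose from 0 to 1 in cortex and 2 in hypothalamus without scan day 1. With median centring added it rose to 3 in hypothalamus (2.25% of all genes higher and 7.6% lower). Settings without scan day 1 were chosen after seeing the data. With the slide block, 0% of all genes were called in each comparison with WT. Only slides 7 and 9 held both Per3 4/4 and WT mice, and no slide held both Per3 5/5 and WT mice. The slide block thus had little power, and its lack of calls does not show that slide accounts for them. Median centring without scan day 1 called 1.51% of all genes higher and 9.55% lower in Per3 4/4 cortex. In hypothalamus it called 3.35% and 16.7% in Per3 5/5 and 0% in Per3 4/4. Median centring with the scan day block called 0.0844% and 3.86% in Per3 5/5 cortex. In hypothalamus it called 0.37% and 1.42% in Per3 5/5 and 0.0439% and 0.195% in Per3 4/4.

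Leaving out WT hypothalamus replicate 3 gave counts from 8 (Per3 5/5) to 12 (Per3 4/4) in hypothalamus and 55 between tissues. For the tissue contrast, 40.9% of all genes were then called higher and 32.4% lower. Leaving out the slide with the dimmest Per3 4/4 mice gave 28 higher in Per3 4/4 cortex, where 12.7% of all genes were called higher and 8.83% lower.

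Replicates 1 to 4 of the 2 KI lines shared a slide and a scan day by number, and replicate 5 of Per3 4/4 shared a slide with replicate 5 of WT. The other numbers marked no shared slide. Same-numbered mice of the KI lines had a median correlation of deviations of 0.15 in cortex and 0.17 in hypothalamus, and at most 6 of 8 pairs of any 2 genotypes were over 0.1, so the numbers were not taken as pairs over all mice. With the replicate block, Per3 4/4 cortex gave 31 called higher, Per3 5/5 cortex 5 higher and 3 lower, and hypothalamus 8 and 6 in Per3 5/5 and 9 and 5 in Per3 4/4. The shares of all genes called higher and lower in cortex were 13.3% and 10.4% in Per3 4/4 and 7.14% and 4.51% in Per3 5/5. In hypothalamus they were 9.96% and 11.9% in Per3 5/5 and 9.1% and 9.32% in Per3 4/4. With the mouse as the pairing block, the tissue contrast gave 50 higher and 10 lower (43% and 34.6% of all genes). Within Per3 4/4 the tissue split of 21 higher and 8 lower became 8 and 13 with median centring and 49 and 3 with quantile normalization; the cause was not tested.

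Ribosomal protein genes have many near-identical copies in the mouse genome, and probe sequences were not used here, so how far a probe reads a copy was not tested. Rpl39l is close to background, and Rpl3l read at a similarly low level.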
